A study of Bos taurus with 129 samples.

Results

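The 10 genes described here are ITGA2B, ITGB3, GP9, GP1BA, PF4, PPBP, SELP, TREML1, MPIG6B and TUBB1, which platelets and the megakaryocytes that shed them are known to express. They were taken by symbol from the 32395 genes of a whole blood count table of beef steers. The 10 were selected on their levels by day, disease label and supplement in these same libraries, so their levels and differences are given as a description, with no p-value. All 10 were in the table and all 10 were among the 18937 genes that passed the filter on low counts.

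Platelets have no nucleus and carry RNA that was loaded into them by megakaryocytes, which reside mainly in the bone marrow. ITGA2B and ITGB3 encode the subunits of the fibrinogen receptor, GP1BA and GP9 encode subunits of the receptor for von Willebrand factor, and PF4 and PPBP encode chemokines stored in the alpha granules. SELP (P-selectin) and TREML1 encode membrane proteins of the alpha granules that reach the platelet surface on activation, MPIG6B encodes an inhibitory receptor of megakaryocytes and platelets, and TUBB1 encodes the beta-tubulin of the ring of microtubules that gives platelets their disc shape.

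Blood was drawn into Tempus tubes from 26 high-risk crossbred beef steers at day 0 and again at days 13, 28, 45 and 60, which gave 59 libraries of healthy and 70 of diseased cattle after the authors had removed AAC animal 48 at day 13. All steers were transported, vaccinated and given doramectin by day 0, and were vaccinated again during the study. The feed of INR cattle (n = 11) held copper, cobalt, manganese and zinc as sulfates. That of AAC cattle (n = 8) held copper, manganese and zinc complexed with amino acids, and cobalt as glucoheptonate. COMBO cattle (n = 7) ate the AAC feed and also received an oral mineral drench before shipment, on day 0 and with any treatment for illness. The labels mark 12 steers as free of disease, called healthy here (4 in each supplement group), and 14 as diseased, called BRD cattle after bovine respiratory disease (4 AAC, 3 COMBO and 7 INR). The label belongs to the animal over the whole study, the day of diagnosis is not given in the sources used here, and a BRD library at a given day is thus not known to come from a sick animal. All COMBO cattle of pen 5 were healthy and all those of pen 6 were BRD cattle, so pen and disease label cannot be told apart in COMBO. AAC cattle were in pens 2 and 8 and INR cattle in pens 3, 4 and 7, of which pen 7 held BRD cattle only. Supplement and pen thus cannot be told apart.

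Library totals ranged from 31613545 to 61692136 counts, with a median of 44268685, and median totals by day lay between 41578878 and 47758090.5. The markers of T cells, B cells and monocytes were detected in every library, as were the 6 neutrophil markers in the table. Of the 8 endothelial markers, ROBO4, EMCN and CLDN5 were at 0 in 94, 69 and 35 libraries, and KDR in 1. CDH5, TEK, TIE1 and PLVAP were detected in every library. In whole blood RNA, fewer platelets and less RNA per platelet cannot be told apart. Values are CPM, the share of a library's counts scaled to a common library size, with TMM factors, and the gene length needed to compare levels between genes was not used here, so levels are compared within a gene only.

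The 10 genes differed in how far they varied over the libraries. ITGA2B varied least, from 122.7 to 266 CPM around a median of 191, with a coefficient of variation of 13.0%. Ordered from the most even gene, ITGA2B stood at place 3033 of the 18937 genes tested, whereas the other 9 stood between places 10539 (ITGB3) and 16383 (GP9). Its partner ITGB3 ranged from 52.1 to 288 CPM around a median of 131.0, with a coefficient of variation of 34.20%.

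GP9 spanned a 47.3-fold range, from 1.17 to 55.3 CPM around a median of 9.18. GP1BA was a low gene, with a median of 16 counts per library, a median of 0.373 CPM and a highest value of 1.90 CPM. It was at 0 in 8 libraries, of which 5 were from day 0, and a count of 0 there allows up to 0.0626 to 0.0789 CPM (3 counts in a library). TREML1 had a median of 4.02 CPM and a highest value of 20.9 CPM, and its 4 libraries at 0 were all from day 0, with a limit of 0.0648 to 0.0743 CPM. These limits cover counting error only.

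PF4 ranged from 75.9 to 911 CPM (median 300.2), PPBP from 4.16 to 110 CPM (median 17.6), and SELP from 1.69 to 37.9 CPM (median 10.8). MPIG6B ranged from 42.3 to 660 CPM (median 233) and TUBB1 from 131.2 to 1699 CPM (median 601). The highest SELP was from INR steer 40 at day 60, the library that the study's methods name for its lower RNA integrity, and the same animal lay between 22.477 and 26.5 CPM on the other days. Most of this spread lay between animals and not between days. The share of the variance of log2 CPM that lay between animals was between 52.2% (ITGA2B) and 79.9% (PPBP), and the share between days was between 2.85% (PPBP) and 21.6% (MPIG6B).

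Some animals were low or high for most of the genes. BRD steer 9 of AAC was among the 3 lowest of the 26 animals for 9 of the 10 genes as a mean over its days, and its MPIG6B was 59, 148, 118.7, 64.5 and 81.9 CPM from day 0 to day 60. BRD steer 29 of INR was among the 3 lowest for 7 of the 10, with MPIG6B at 58.1, 107.5, 200.1, 184 and 174 CPM. BRD steer 39 of INR was among the 3 highest for 5 of the 10, with MPIG6B at 406, 420.3, 535, 389 and 511 CPM. The values of steer 39 lay above all those of steers 9 and 29. These 3 animals were picked for their ranks, so their values are a description.

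**Figure D1:**
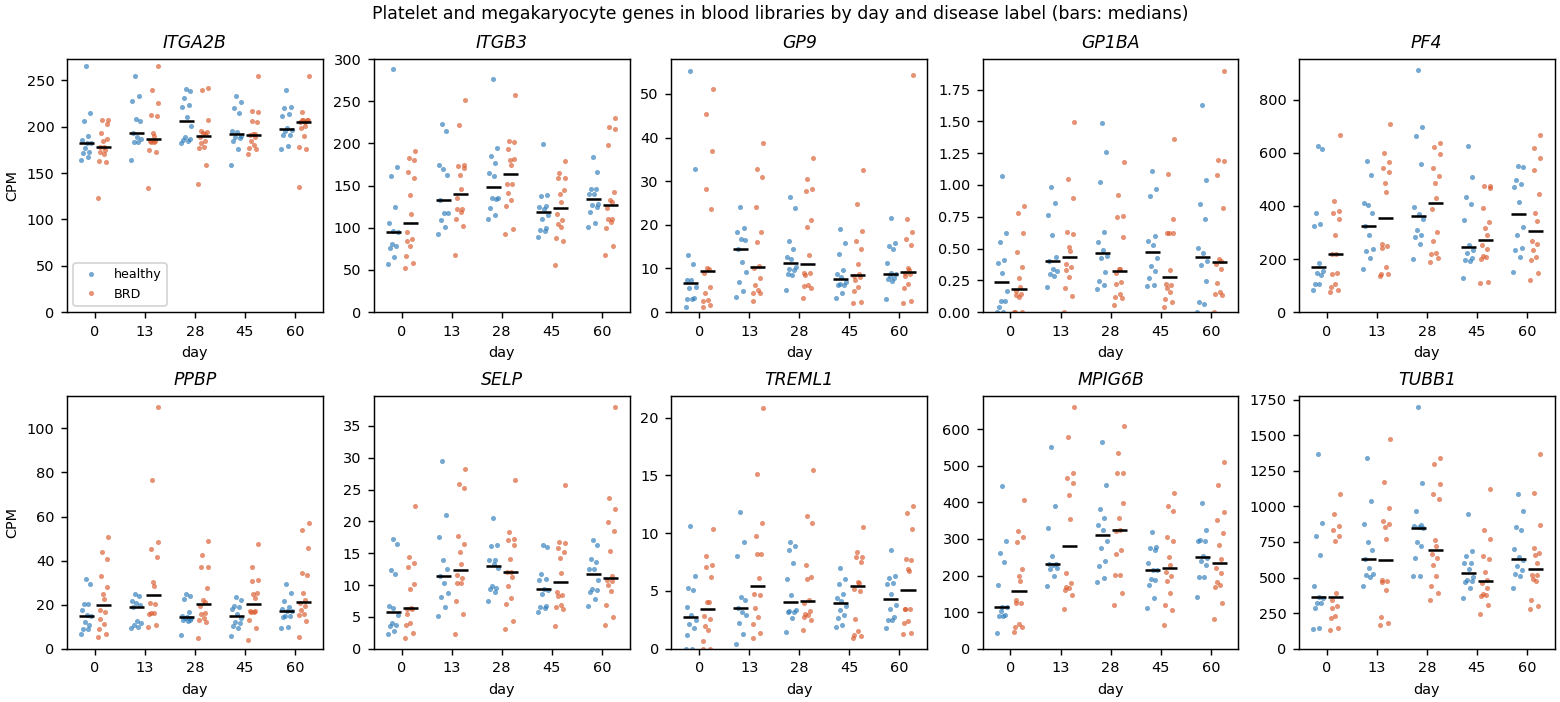
TMM-scaled CPM of each gene (vertical axis, from 0) by day (horizontal axis), with 1 point per library, healthy cattle in blue and BRD cattle in orange, and black bars at the group medians. The labels overlap on every day for every gene, and the day 0 medians of MPIG6B (113.3 CPM in healthy and 159 in BRD cattle) lie below those of day 28 (310 and 324).

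The change of the 10 genes from day 0, the day of pen enrollment, to the later days was examined first. At day 28, all 10 genes had higher fitted levels than at day 0, by 0.03 (PPBP) to 1.02 (MPIG6B) on the log2 scale, with a median of 0.77. The median difference of the 10 genes was 0.55 at day 13, 0.31 at day 45 and 0.56 at day 60, while the median over all genes tested lay between -0.01 and 0.01 at each day. In the fit with the animal as a block, 9, 8, 6 and 8 of the 10 genes passed the adjusted threshold of 0.10 on the higher side at days 13, 28, 45 and 60, and none passed it on the lower side. Of all genes tested, 17.3%, 18.6%, 15.8% and 17% passed on the higher side at those days, and 3014, 3298, 2873 and 3101 of the 18937 genes passed on the lower side. The days shared the day 0 libraries, and the genes had been picked with these values known, so nothing is read from the counts.

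MPIG6B had a lowest value of 42.3, a median of 129.2 and a highest value of 444 CPM over the 26 animals at day 0, and of 118.7, 324 and 609 CPM at day 28. Its medians at days 13, 45 and 60 were 231, 215 and 247 CPM. The gene was higher than at day 0 in 22 of 25 animals at day 13 and in 25 of 26, 19 of 26 and 23 of 26 animals at days 28, 45 and 60. The fitted log2 differences were 0.86 ± 0.11 (SE), 1.02 ± 0.11, 0.49 ± 0.11 and 0.71 ± 0.11 at days 13, 28, 45 and 60, the widest of the 10 genes at day 28. MPIG6B overlaps LY6G6C in the RefSeq annotation, and the strand setting of the counting is not given in the sources used here, so reads of the overlap could count for either gene.

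TUBB1, the platelet tubulin, had values of 131.2, 361 and 1367 CPM (lowest, median, highest) at day 0 and of 340.4, 756 and 1699 CPM at day 28. The difference at day 28 was 0.83 ± 0.13, with 23 of 26 animals higher, and at day 45 it was 0.28 ± 0.12, with 17 of 26 higher. The days overlapped in their ranges, and the day 45 median of 495 CPM lay between the medians of days 0 and 28.

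The granule chemokines differed from each other. PF4 had a median of 202 CPM at day 0 and 379 CPM at day 28, with log2 differences of 0.58 ± 0.11, 0.81 ± 0.11, 0.33 ± 0.11 and 0.60 ± 0.11 at days 13, 28, 45 and 60. PPBP had a median of 17.02 CPM at day 0 and 15.97 CPM at day 28, with log2 differences of 0.35 ± 0.11, 0.03 ± 0.11, -0.03 ± 0.11 and 0.22 ± 0.11. PF4 was higher than at day 0 in 23 of 26 animals at day 28, and PPBP in 12 of 26. PPBP passed the threshold at day 13 only, whereas PF4 passed it on all 4 days, and the difference between both genes was not tested. PF4 and PPBP lie next to each other in the bovine RefSeq annotation.

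The granule membrane genes had the higher level on each later day. SELP went from a median of 6.32 CPM at day 0 to 11.5, 12.4, 9.31 and 11.1 CPM at days 13, 28, 45 and 60, with log2 differences of 0.81 ± 0.12, 0.76 ± 0.12, 0.55 ± 0.12 and 0.80 ± 0.12. It was higher than at day 0 in 24 of 26 animals at day 28. TREML1 had medians of 2.88 CPM at day 0 and 4.49, 4.09, 4.58 and 4.27 CPM later, with differences of 0.48 ± 0.24 to 0.78 ± 0.24, of which that at day 45 did not pass the threshold.

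The receptor partners moved unequally. ITGB3 had a lowest value of 52.1, a median of 95.6 and a highest value of 288 CPM at day 0, and of 92.6, 157 and 276 CPM at day 28, a log2 difference of 0.53 ± 0.09, with 24 of 26 animals higher. ITGA2B had a median of 180 CPM at day 0 and between 190 and 203 CPM later, with log2 differences of 0.10 ± 0.04 to 0.13 ± 0.04 that passed the threshold on all 4 days. ITGA2B thus differed by less than the others that passed, in 19 to 21 animals upwards per day, and its ranges at day 0 and day 28 overlapped almost wholly (122.7 to 265.5 and 138 to 242 CPM).

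GP1BA, the ligand-binding subunit of the von Willebrand factor receptor, had fitted log2 differences of 0.76 ± 0.25 to 0.89 ± 0.26, at medians of 0.183 CPM at day 0 and 0.384 to 0.405 CPM later. GP9 had differences between -0.13 ± 0.19 (day 45) and 0.36 ± 0.19 (day 28), none of which passed the threshold. The GP9 values at day 0 ran from 1.17 to 55.3 CPM and those at day 28 from 3.17 to 35.24 CPM, so the days overlapped widely.

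**Figure D2:**
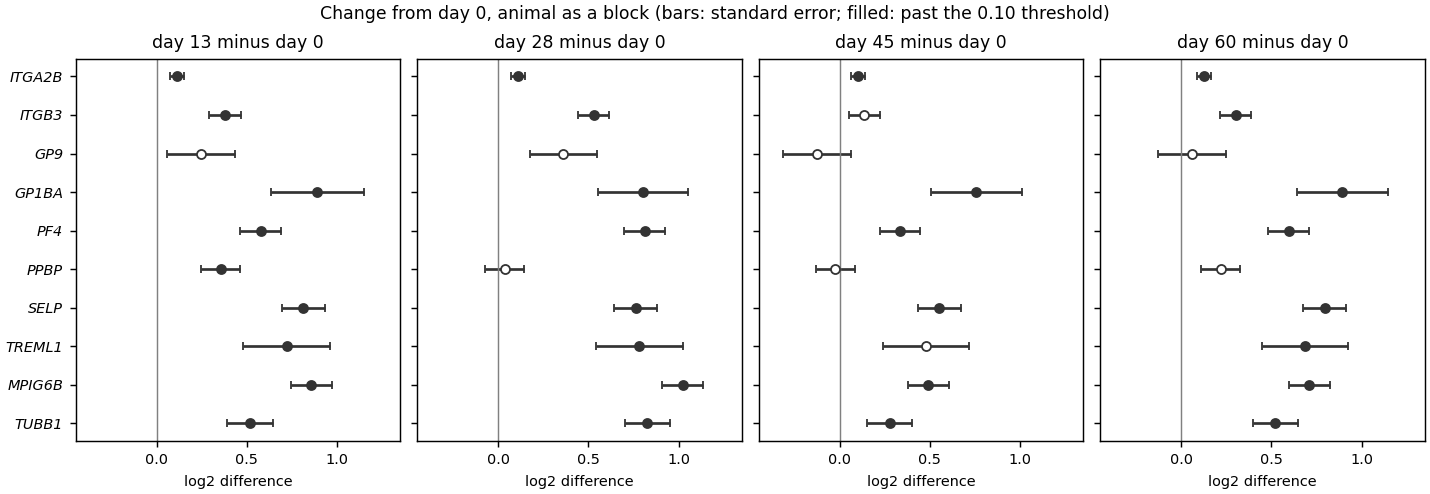
Fitted log2 difference of each gene (rows) between each later day and day 0, with the animal as a block, standard errors as bars, and filled points for differences past the adjusted threshold of 0.10. MPIG6B, SELP, PF4, GP1BA, TUBB1 and ITGA2B are filled on all 4 days, GP9 is open on all 4, and ITGA2B lies within 0.10 to 0.13.

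Animals differed in how many of the 10 genes were above their own day 0 level. At day 28, the median animal had 9 of 10 above it, 7 of 26 animals had all 10, and 1 of 26 had 2 or fewer. At days 13, 45 and 60, 11 of 25, 7 of 26 and 9 of 26 animals had all 10 above it, and 3, 4 and 3 animals had 2 or fewer. COMBO steer 6, a healthy animal whose MPIG6B of 444 CPM was the highest of day 0, had the lowest median log2 change of the 10 genes at day 28 (-0.73) and day 45 (-1.08). AAC steer 48, a healthy animal with the lowest MPIG6B of day 0 (42.3 CPM), had the highest median change at days 28, 45 and 60 (1.75, 1.83 and 1.89). The change includes the day 0 value, so a low day 0 value raises it. The median change was above 0 in 24 of 26 animals at day 28, in 11 of 12 healthy and 13 of 14 BRD cattle.

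The change was present in both labels when fitted apart. The median log2 difference of the 10 genes was 0.49, 0.85, 0.33 and 0.61 at days 13, 28, 45 and 60 in healthy cattle alone, and 0.58, 0.60, 0.27 and 0.51 in BRD cattle alone. The difference between labels in this change was not tested. Without the animal as a block, 1 and 4 of the 10 genes passed the threshold at days 45 and 60, in place of 6 and 8. Of all genes, 2823 and 3382 passed there, in place of 5861 and 6318. Without the day 60 library of steer 40, 9, 8, 5 and 8 of the 10 genes passed at days 13, 28, 45 and 60, with median log2 differences of 0.55, 0.77, 0.30 and 0.55. Of all genes, 6373, 6947, 5900 and 6684 passed in that fit.

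Markers of other blood cells moved over the same days. The summed level of the 12 erythroid markers had a median of 155 CPM at day 0 (range 38.02 to 2588.7) and of 2501.3, 966, 1881.8 and 861 CPM at days 13, 28, 45 and 60, and 11, 8, 10 and 8 of the 12 passed the threshold on the higher side. The summed level of the 6 monocyte markers had a median of 1352.8 CPM at day 0 (range 809 to 3427.5) and of 835, 727, 825 and 809 CPM later, and 3, 4, 3 and 5 of the 6 passed on the lower side. The 6 neutrophil markers measured had a median sum of 1327 CPM at day 0 and 941 to 1082 CPM later. The 8 endothelial markers had median sums of 7.76 CPM at day 0 and 9.52 to 11.1 CPM later, with 5, 3, 3 and 3 of 8 higher. Over all libraries their medians ran from 0 (ROBO4 and EMCN) to 4.89 CPM (TIE1). T cell and B cell sums had medians of 1105 and 1961 CPM at day 0, and 1032 to 1081 and 2054 to 2299 CPM later. CPM are shares of a library, so a lower share of 1 cell type raises the shares of others, and the part of these markers in the values of the 10 genes was not tested.

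The wider platelet and megakaryocyte lists, 82 further genes of which 81 were in the table and 78 were tested, did not share 1 direction. Of the 78, 25 rose and 16 fell at day 13, 32 rose and 18 fell at day 28, 20 rose and 10 fell at day 45, and 25 rose and 11 fell at day 60 (edgeR quasi-likelihood test, Benjamini-Hochberg adjusted over all genes). Their median log2 difference was 0.07, 0.05, 0.08 and 0.09 at the 4 days. Of all 18937 genes tested, 3275, 3527, 2988 and 3217 rose and 3014, 3298, 2873 and 3101 fell at those days. Whether the counts of these lists, or of the single lists below, differ from those of all genes was not tested.

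Among 14 tested genes of the platelet cytoskeleton, 8 rose and 1 fell at days 13, 28 and 60, and 7 rose and 1 fell at day 45. At day 28, TUBA4A, an alpha-tubulin of platelets, rose by 0.61 ± 0.07 on the log2 scale (edgeR adjusted p = 3.13e-11), from a median of 117.1 to 199 CPM. FHL1, a LIM domain protein of muscle and platelets, rose by 0.67 ± 0.08 (edgeR adjusted p = 5.71e-11), from 74.01 to 127.3 CPM. Both genes also passed on the higher side on the other 3 days.

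Receptors and granule contents went both ways. Of 18 receptor genes tested, 4 rose and 6 fell at day 13, 6 rose and 7 fell at day 28, 2 rose and 3 fell at day 45, and 5 rose and 4 fell at day 60. Of 18 granule genes tested, 5 rose and 6 fell at day 13, 8 rose and 6 fell at day 28, 4 rose and 2 fell at day 45, and 6 rose and 5 fell at day 60.

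CD36, a scavenger receptor that monocytes also express, fell by 3.47 on the log2 scale at day 28 (SE 0.30, edgeR adjusted p = 3.55e-17). Its median was 1.49 CPM at day 0 and 0.162 CPM at day 28, and it was the listed gene with the smallest p on each of the 4 days. THBS1, thrombospondin-1 of the alpha granules, which monocytes also make, fell by 1.37 at day 13 (SE 0.19, edgeR adjusted p = 2.86e-08), from a median of 102.46 to 43.7 CPM. It fell by 1.46 at day 45 and 1.55 at day 60. The monocyte marker CD14 fell by 1.26 at day 28 beside them, and the part of monocytes in CD36 and THBS1 was not tested.

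Of 17 signalling genes and enzymes tested, 6 rose and 1 fell at day 13, 8 rose and 2 fell at day 28, 5 rose and 2 fell at day 45, and 4 rose and none fell at day 60. GUCY1B1, a subunit of the soluble guanylate cyclase that nitric oxide activates, rose by 0.57 ± 0.08 at day 13 (edgeR adjusted p = 2.91e-08), from a median of 70.9 to 91.95 CPM. BIN2, a membrane-binding protein of blood cells, rose by 0.16 ± 0.03 at day 45 (edgeR adjusted p = 5.5e-07), from 332 to 358 CPM. Of 11 megakaryocyte transcription factors, 2 rose and 2 fell at days 13, 28 and 45, and 2 rose and 1 fell at day 60.

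**Figure D3:**
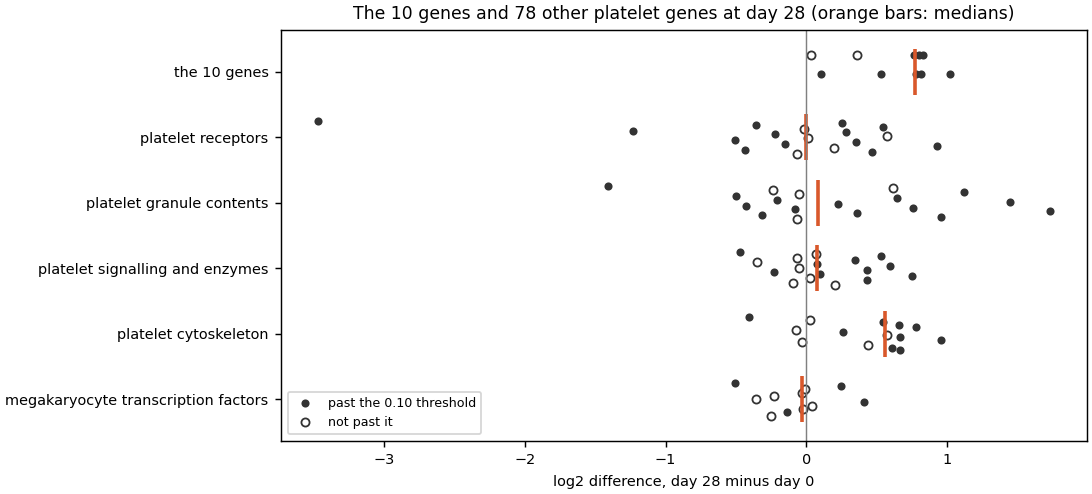
Fitted log2 difference between day 28 and day 0 (horizontal axis) of the 10 genes and of 78 other platelet genes in 5 lists (rows), with 1 point per gene, filled where past the adjusted threshold of 0.10, and orange bars at the medians. The median is 0.77 for the 10 genes and 0.56 for the cytoskeleton list, and CD36 lies farthest to the left at -3.47.

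The next comparison asked whether BRD and healthy cattle differed in these genes at each day. In the fit with the supplements weighted equally, none of the 10 genes passed the threshold on any day, and the share of all genes that passed was 0.0158%, 0%, 0.00528%, 0% and 0.00528% at days 0, 13, 28, 45 and 60. At an unadjusted p under 0.05, 0, 1, 1, 0 and 0 of the 10 genes were counted, and neither DESeq2 nor limma voom called any. Of all 18937 genes tested, 1347, 716, 1635, 800 and 689 were counted at that p. The median log2 difference of the 10 genes (BRD minus healthy) was 0.10, 0.17, -0.04, 0.04 and -0.01 at the 5 days. The groups overlapped for every gene on every day. The erythroid markers had a median log2 difference of 0.87 at day 13, with 11 of 12 above 0 and none called by edgeR, and their sum was 147.47, 1364.9 and 8595.2 CPM (lowest, median, highest) in healthy and 274.07, 2948.7 and 28018 CPM in BRD cattle. Their part in the values of the 10 genes at that day was not tested.

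PPBP and TREML1 had the higher fitted level in BRD cattle on all 5 days, and PPBP had the wider differences relative to their SE. The lowest, median and highest values of PPBP at day 13 were 9.54, 18.96 and 24.9 CPM in 11 healthy animals and 9.82, 24.6 and 110 CPM in 14 BRD animals. At that day 7 of 14 BRD animals lay above the highest healthy animal and none lay below the lowest. The fitted log2 differences were 0.43 ± 0.29, 1.05 ± 0.31, 0.49 ± 0.29, 0.54 ± 0.29 and 0.54 ± 0.29 in the order of the 5 days, and the medians of BRD cattle on the other days were 20.03, 20.3, 20.2 and 21.3 CPM against 15, 14.2, 14.8 and 17.05 CPM. The highest value, 110 CPM, was from COMBO steer 16, which also had 708 CPM of PF4 and 660 CPM of MPIG6B, the highest value of MPIG6B in the series, at that day.

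Its neighbour PF4 showed no such pattern, with log2 differences between -0.18 ± 0.28 and 0.18 ± 0.29. ITGA2B had slightly lower fitted levels in BRD cattle on each day, by -0.02 to -0.16, each with an SE of 0.07. ITGB3 differed by -0.01 to 0.03, with SEs of 0.18 to 0.19. The differences of the remaining genes lay between -0.65 ± 0.47 (GP1BA at day 28) and 0.73 ± 0.49 (TREML1 at day 13), and most were smaller than their SE.

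Within the 4 pens that held both labels, with the pen as a covariate (7 BRD and 8 healthy animals), the values at day 0 differed from those over all pens. The median log2 difference of the 10 genes was 0.51 in place of 0.10, and GP9, SELP, MPIG6B and TUBB1 were higher in BRD cattle by 1.20 ± 0.52, 0.75 ± 0.34, 0.54 ± 0.27 and 0.54 ± 0.29. None of the 10 genes passed the threshold there on any day. PPBP differed by 0.58 ± 0.32 at day 0 and 1.16 ± 0.33 at day 13 in these pens. At days 28, 45 and 60 it differed there by 0.33 ± 0.32, 0.34 ± 0.32 and 0.35 ± 0.32. Over all pens, the group mean of PPBP over days 13 to 60 was 15.281 CPM in BRD and 15.886 CPM in healthy AAC cattle. In INR it was 27.813 and 15.434 CPM. In COMBO, where label and pen cannot be told apart, it was 40.898 and 17.926 CPM.

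Of the 78 further platelet genes, none was called between the labels on any day by edgeR, DESeq2 or limma voom. At an unadjusted p under 0.05, edgeR counted 1, 3, 3, 1 and 0 of them, and 1347, 716, 1635, 800 and 689 of all 18937 genes. Within the 4 pens with both labels, 7 of the 77 tested there were called at day 0 (9.09%) and none on the other days. Of all 17788 genes tested in these pens, 1622 (9.12%) were called at day 0, so the share of the platelet genes lay near that of all genes.

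The supplements were compared at day 0, when the pens were first assigned to them. Whether blood was drawn before the day 0 drench of COMBO is not given in the sources used here. AAC cattle had the lowest fitted level of all 10 genes among the 3 groups at day 0, and the groups overlapped for each gene. The groups shared no pen, so supplement and pen cannot be told apart in these differences. None of the 10 passed the threshold in edgeR between AAC and COMBO, AAC and INR, or COMBO and INR, where 0.565%, 0% and 0% of all genes passed. The 3 pairs share groups, so a low value of AAC enters both of its pairs. At an unadjusted p under 0.05, 9, 6 and 0 of the 10 were counted, as were 2010, 784 and 1250 of all 18937 genes. The 10 had been picked with these values known, so nothing is read from these counts. DESeq2 called 3 genes between AAC and COMBO (ITGB3, GP1BA and MPIG6B) and 1 between AAC and INR (PF4). With 1 animal left out of the edgeR fit, between 0 (without steer 21 or 46) and 1100 (without steer 16) of all genes passed between AAC and COMBO. MPIG6B passed between AAC and COMBO without steer 16, 29, 31, 41 or 43, ITGB3 without steer 16, and GP1BA without steer 29 or 49.

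MPIG6B at day 0 was 42.3, 88.3, 88.8 and 93.4 CPM in the healthy AAC animals and 59, 67.4, 123.9 and 219 CPM in the AAC animals with BRD. In COMBO it was 102.49, 237, 295 and 444 CPM in healthy animals and 46.9, 184 and 292 CPM in BRD animals. In INR it was 112.8, 113.7, 175 and 262 CPM in healthy animals and ran from 58.1 to 406 CPM, with the other BRD animals at 124.3, 134, 199, 305 and 321 CPM. All 8 AAC animals lay below the COMBO median of 237 CPM and 7 of 8 lay below the INR median of 175 CPM, and 4 of 7 COMBO animals lay above the highest AAC animal. The fitted log2 difference was -1.18 ± 0.35 against COMBO and -1.0 ± 0.32 against INR.

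GP1BA had the widest difference, at the lowest counts. It was at 0 in 3 of 8 AAC animals, 1 of 7 COMBO animals and 1 of 11 INR animals, with medians of 0.0822, 0.475 and 0.271 CPM. The fitted differences of AAC were -2.26 ± 0.71 against COMBO and -1.88 ± 0.67 against INR. TREML1 was at 0 in 3 of 8 AAC animals and 1 of 7 COMBO animals, with medians of 1.31 CPM in AAC and 4.02 CPM in both other groups, and AAC differed by -1.50 ± 0.62 from COMBO and by -1.43 ± 0.58 from INR. A fitted difference at counts near 0 depends on the prior count of the fit.

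PF4 had a lowest value of 85.16, a median of 106.2 and a highest value of 381 CPM in AAC, of 84.5, 217 and 613 CPM in COMBO, and of 75.9, 323 and 667 CPM in INR. Of the 8 AAC animals, 7 lay at 148 CPM or lower, and the highest, BRD steer 31, lay at 381 CPM. The difference of AAC was -0.92 ± 0.36 against COMBO and -1.23 ± 0.34 against INR. PPBP had medians of 12.8, 28.0 and 20.1 CPM, and AAC differed by -0.90 ± 0.38 and -0.62 ± 0.34.

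ITGB3 was 56.99, 71.5 and 139 CPM (lowest, median, highest) in AAC, 77.9, 124.7 and 288 CPM in COMBO, and 52.1, 116.9 and 191 CPM in INR. It differed by -0.72 ± 0.24 from COMBO and by -0.61 ± 0.22 from INR. ITGA2B differed by -0.19 ± 0.09 from COMBO and -0.12 ± 0.08 from INR, at medians of 174, 184 and 182 CPM.

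SELP, TUBB1 and GP9 had AAC medians of 5.13, 301 and 4.48 CPM. They differed from COMBO by -1.0 ± 0.38, -0.83 ± 0.36 and -0.42 ± 0.57, and from INR by -0.69 ± 0.35, -0.54 ± 0.33 and -1.17 ± 0.53. The log2 differences between COMBO and INR (COMBO minus INR) lay between -0.75 ± 0.55 (GP9) and 0.38 ± 0.59 (GP1BA). Library totals at day 0 had medians of 43439809, 42001008 and 41251950 counts in AAC, COMBO and INR. The summed erythroid markers had medians of 141, 154 and 167 CPM, and the summed monocyte markers 1430, 1199 and 1546 CPM, with ranges that overlapped between the groups. No marker gene of another cell type passed the threshold between supplements at day 0.

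**Figure D4:**
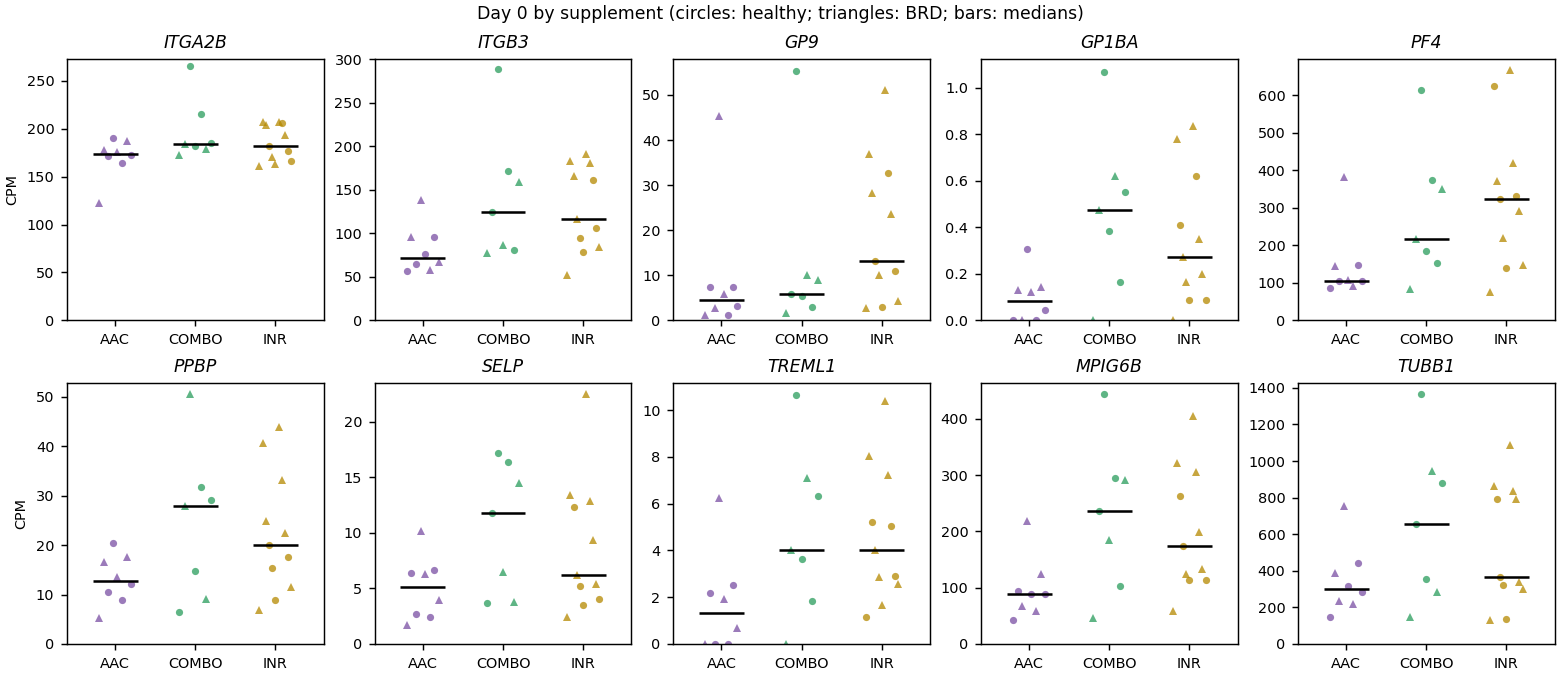
TMM-scaled CPM at day 0 (vertical axis, from 0) of each gene in AAC, COMBO and INR cattle, with circles for healthy and triangles for BRD animals and black bars at the medians. The AAC median is the lowest of the 3 for each gene, and the groups overlap in all 10 panels.

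Of the 78 further platelet genes, 2 fell below COMBO in AAC at day 0 in edgeR. None was called by edgeR between AAC and INR or COMBO and INR, and DESeq2 called 5, 0 and 0 in the 3 pairs. At an unadjusted p under 0.05, edgeR counted 17, 13 and 0 of them, and 2010, 784 and 1250 of all 18937 genes. NEXN, an actin-binding protein, was lower in AAC by -2.81 ± 0.71 (edgeR adjusted p = 0.0722), with medians of 0.0529 CPM in AAC and 0.38 CPM in COMBO. MMRN1, multimerin-1 of the alpha granules, was lower by -4.52 ± 1.18 (edgeR adjusted p = 0.0746), with 5 of 8 AAC animals at 0 and a highest value of 0.121 CPM, against a median of 0.369 CPM in COMBO. Leaving out 1 animal at a time left between 0 and 7 of the 78 genes called (7 without COMBO steer 16). Both genes had few counts, and neither passed the threshold when the 26 libraries of day 0 were fitted alone.

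Over days 13 to 60, with the counts of each animal summed, AAC again had the lower fitted levels. Between AAC and COMBO they ran from -0.08 ± 0.07 (ITGA2B) to -1.18 ± 0.47 (GP1BA) with a median of -0.49, against a median of -0.91 at day 0. The value of GP1BA was -0.43 ± 0.52 in healthy and -1.94 ± 0.75 in BRD cattle fitted alone. Between AAC and INR they ran from -0.16 ± 0.06 (ITGA2B) to -0.98 ± 0.44 (GP1BA) with a median of -0.51, against -0.84 at day 0. None of the 10 genes passed the threshold in edgeR or DESeq2. In edgeR, 0.00493%, 0.00493% and 0% of the 20291 genes tested passed between AAC and COMBO, AAC and INR, and COMBO and INR. At an unadjusted p under 0.05, 5, 6 and 0 of the 10 were counted in edgeR, as were 1501, 1814 and 864 of all genes. The difference between day 0 and the later days in the supplement contrasts was not tested. The summed erythroid markers, as the mean over days 13 to 60 of each animal, were 675.6, 4474.3 and 11479 CPM (lowest, median, highest) in AAC, 200.81, 906.04 and 2249 CPM in COMBO, and 237.79, 1811.6 and 8447.4 CPM in INR. Their median log2 difference was 1.60 between AAC and COMBO (12 of 12 above 0), 0.52 between AAC and INR (10 of 12 above 0) and -1.13 between COMBO and INR (12 of 12 below 0). None of the 12 was called in these pairs by edgeR, and their part in the values of the 10 genes was not tested.

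Mean MPIG6B over days 13 to 60 was 103.2, 197 and 398 CPM (lowest, median, highest) in AAC, 137, 385 and 427 CPM in COMBO, and 166, 301 and 464 CPM in INR. Mean TREML1 was 1.88, 2.95 and 6.52 CPM in AAC, 2.12, 6.18 and 10.21 CPM in COMBO, and 1.90, 6.205 and 12.2 CPM in INR. Mean SELP was 4.28, 9.73 and 12.7 CPM in AAC, 7.19, 16.7 and 19.7 CPM in COMBO, and 4.33, 12.98 and 29.03 CPM in INR. The groups overlapped for all 3 genes, with the lowest AAC value from steer 9 and the highest from steer 31. Of 81 further platelet genes tested in the sums, edgeR called none in the 3 pairs and DESeq2 called 1, 1 and 0. At an unadjusted p under 0.05, edgeR counted 11, 4 and 6 of them, and 1501, 1814 and 864 of all 20291 genes.

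**Figure D5:**
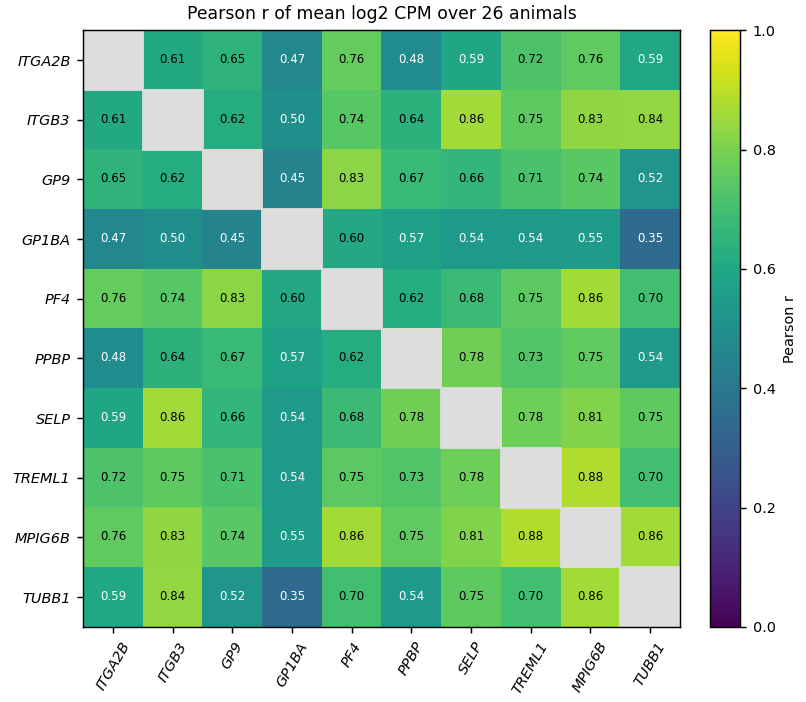
Pearson r between the mean log2 CPM of each pair of genes over 26 animals (colour and number in each cell, scale from 0 to 1). The values run from 0.35 (GP1BA with TUBB1) to 0.88 (TREML1 with MPIG6B).

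The genes were compared with each other over the 26 animals, as the mean of log2(CPM + 0.5) over the days of each animal. Pearson r was above 0 for all 45 pairs, from 0.35 to 0.88 with a median of 0.70. The points share their library depth and the scaling of each library, and the 10 genes were chosen as a group on these libraries, so the values are a description with no p-value.

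The fibrinogen receptor partners ITGA2B and ITGB3 had r = 0.61 and Spearman rho = 0.57, with r = 0.53 without the 2 animals farthest from the median of ITGA2B. Within labels r was 0.72 in healthy and 0.59 in BRD cattle, and within AAC, COMBO and INR it was 0.40, 0.61 and 0.53. ITGB3 had a higher r with SELP (0.86), TUBB1 (0.84) and MPIG6B (0.83) than with its partner.

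The von Willebrand factor receptor genes GP9 and GP1BA had r = 0.45 and rho = 0.49, with r = 0.52 without the 2 farthest animals. Within labels r was 0.56 and 0.41, and within AAC, COMBO and INR it was 0.21, 0.86 and 0.34. GP1BA had the lowest median r with the other 9 genes (0.54), and it was also the gene with the fewest counts.

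The chemokines PF4 and PPBP had r = 0.62 and rho = 0.62, with r = 0.56 without the 2 farthest animals. Within labels r was 0.39 in 12 healthy and 0.81 in 14 BRD cattle, and the difference between labels was not tested. Within AAC, COMBO and INR it was 0.58, 0.65 and 0.50. PF4 had a higher r with MPIG6B (0.86) and GP9 (0.83) than with PPBP.

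Over all libraries, which include repeated samples of each animal, each of the 10 genes was set against the mean of the other 9. MPIG6B followed it most closely (r = 0.93), followed by PF4 (0.89), SELP (0.87), ITGB3 (0.86), TREML1 (0.84), TUBB1 (0.81), GP9 (0.78), PPBP (0.71), GP1BA (0.62) and ITGA2B (0.62). These values are a description over libraries that are not independent.

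Outside the 10, genes whose log2 CPM was among the most like the mean of the 10 over all libraries were CLU (r = 0.91), FHL1 (0.88), SEC14L5 (0.86), LOC104974758 (0.86), RSU1 (0.85), LOC112445030 (0.84), MYLK (0.83), PDE3A (0.83) and MINDY3 (0.83). Over the 26 animal means, r was 0.90 for CLU, 0.86 for FHL1, 0.86 for SEC14L5 and 0.78 for MYLK. CLU encodes clusterin, a protein of the alpha granules, MYLK encodes a myosin light chain kinase, and PDE3A encodes a phosphodiesterase of platelets. CLU, FHL1, MYLK and PDE3A were in the platelet lists, and SEC14L5, LOC104974758, RSU1, LOC112445030 and MINDY3 were not. The genes most like ITGA2B alone were GP5 (r = 0.69), a further glycoprotein of the von Willebrand factor receptor complex, and VCL (0.68), which encodes vinculin.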

How the data were processed

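Whole blood RNA of 26 steers was sequenced from 59 healthy and 70 BRD libraries made with a stranded mRNA kit. The authors trimmed the reads with Trimmomatic, aligned them with HISAT2 to the ARS-UCD1.3 assembly and deposited StringTie gene counts, which are whole numbers derived from coverage and not normalized. The 10 genes and all lists were chosen with earlier results of these data known.

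Counts were used as deposited, with 0 columns of other samples. Genes were kept by filterByExpr (18937 in libraries and 20291 in sums over animals), scaled by TMM and tested with the edgeR 4.0.16 quasi-likelihood test in R 4.3.3, with Benjamini-Hochberg adjustment over all genes tested and a threshold of 0.10. Disease label and day 0 supplement contrasts came from 30 cells of supplement, label and day, with the other factor weighted equally. Days were compared with the animal as a block, since the libraries of an animal are repeated samples, although steer 48 had no day 13 library. Supplements over days 13 to 60 were compared as counts summed per animal. The biological coefficient of variation was 39.0%, 28.4% and 35.5% in these 3 fits. Label contrasts share animals over the days, so the 5 days are not independent.

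Correlations used log2(CPM + 0.5) and are given with no p-value, since the genes were chosen on these libraries. Of the further platelet genes, the 3 of smallest p among those past the threshold in a comparison were named, and so were the 10 genes with the highest r with the mean of the 10, of which 1 is not reported here. Alternatives were DESeq2 1.42.0, limma 3.58.1 (voom), RLE size factors, no count filter, trended dispersion, other groupings and leaving out each animal. The main edgeR fits were also run on simulated counts with known changes. These counts were drawn with no animal effect, so the simulation does not cover repeated samples of an animal. Neighbouring and overlapping genes were read by symbol from the RefSeq annotation of ARS-UCD2.0, which differs from the build of the counts, so no coordinates are given. The limit for a count of 0 is 3 counts.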

Additional observations from a re-analysis of the deposited data

Results flagged for a closer look

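In 11 of 40 groups tested, all of AAC or COMBO, 1 animal lay far from the others relative to the range of the group (Dixon's criterion). INR, with 11 animals, was larger than the group sizes the criterion was applied to and was not tested. The criterion's rate of about 1 in 20 holds for normal values, whereas CPM were used here without a log transform. The genes are correlated and were picked on these levels. The 11 are thus not independent, and nothing is read from their number.

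In AAC at day 0, BRD steer 31 was the far animal for 4 genes, with the highest GP9 (45.3 CPM), PF4 (381 CPM), TREML1 (6.23 CPM) and MPIG6B (219 CPM) of the 8 animals. Its means over days 13 to 60 were also far from the others for GP9 (22.3 CPM), TREML1 (6.52 CPM) and MPIG6B (398 CPM). Without this animal the median log2 difference of the 10 genes at day 0 was -1.25 between AAC and COMBO and -1.09 between AAC and INR, in place of -0.91 and -0.84.

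In AAC at day 0, steer 49 had the highest GP1BA (0.305 CPM) and steer 21 the lowest ITGA2B (122.7 CPM). In COMBO, the highest GP9 was 55.3 CPM at day 0 (steer 6) and 24.52 CPM as the mean over days 13 to 60 (steer 16). Without steer 49 the fitted difference of GP1BA at day 0 was -3.43 ± 0.86 between AAC and COMBO and -3.05 ± 0.84 between AAC and INR.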

How the results depend on the processing

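No called result changed its direction. Of the day comparisons, the fit without the animal as a block called 27, 31, 8 and 20 of the 78 further platelet genes at days 13, 28, 45 and 60, and 1 and 4 of the 10 genes at days 45 and 60. It called 3995, 4025, 2823 and 3382 of all genes, against 6289, 6825, 5861 and 6318 with the block. In healthy cattle alone, 5, 2 and 4 of the 10 genes and 22, 9 and 17 of the 78 were called at days 13, 45 and 60. Of all genes, 2821, 2076 and 2976 were called in that fit. In BRD cattle alone, 5, 2 and 5 of the 10 and 31, 16 and 23 of the 78 were called at days 28, 45 and 60. There, 3287, 3595 and 3051 of all genes were called. Each of these fits had fewer animals, and the counts over all genes were also lower than with all animals. Leaving out 1 animal at a time left 4 to 8 of the 10 genes called at day 45 and 7 to 10 on the other days. The counts over all genes in these fits are not given here, so nothing is read from this range.

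Between labels, the block as a random effect (limma voom) called 0 of the 10 and 0 of the 78, as reported. Within the pens that held both labels, 7 of the 77 tested were called at day 0, and 1622 of all genes at day 0 (against 3) and at least 4 on each later day (against 0 or 1). Without the supplement in the model, 7 and 19 of all genes were called at days 0 and 13. DESeq2 called 99, 37, 42, 32 and 33, and voom called 0, 0, 8, 0 and 0.

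Between AAC and COMBO at day 0, DESeq2 called 3 of the 10 and 5 of the 78, no count filter left 1 of the 78, and the 26 libraries of day 0 alone left 0. Leaving out each animal in turn gave 0 to 2 of the 10 (2 without steer 16 or 29) and 0 to 7 of the 78 (7 without steer 16, and 0 without any of steers 9, 18, 21, 34, 42, 46 and 54). Between AAC and INR at day 0, DESeq2 called 1 of the 10. Over days 13 to 60, DESeq2 called 1 of the 81 in each of the AAC pairs, NEXN and GP5. Of all genes, DESeq2 called 444, 38 and 79 at day 0 and 135, 145 and 46 over days 13 to 60 in the pairs AAC and COMBO, AAC and INR, and COMBO and INR. For AAC and COMBO at day 0, no filter left 40 of all genes and day 0 alone 0, against the 0.565% reported, and RLE gave 6 for COMBO and INR. The cause of these differences was not tested. Of the fitted differences of the 10 genes, 995 of 1000 alternatives moved by less than the spread. The spread was the standard deviation between animals of log2 CPM or of its change. For MPIG6B at day 28 it was 0.63, against an SE of 0.11. A fit to the same libraries seldom moves that far, so nothing is read from the 995. The other 5 and all 3 such cases among the left-out animals were of GP1BA, whose low counts limit its precision.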
